A study of Mus musculus with 6 samples.

Results

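mRNA levels of complement components and complement receptors were measured in cells of the subcut adipose tissue (AT) of Klf3-/- and WT mice that were sorted, and are labelled, as eosinophils. Of 10 measured eosinophil markers, 7 lay below the background level in them. The complement genes studied were 9: the C1q chains C1qa, C1qb and C1qc, the convertase components C2, C3 and Cfb, the anaphylatoxin receptors C3ar1 and C5ar1, and the inhibitor Serping1. Every probe set that the array annotation pairs with exactly one of these symbols was taken. This gave 11 of 45037 probe sets, for 8 of 17097 genes, with 3 probe sets for C3ar1, 2 for C5ar1 and 1 for each of the other 6 genes. C3 had no probe set under its symbol in that annotation and was not analysed here.

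Complement is a set of blood and tissue proteins that are activated in a cascade on microbes, immune complexes and dying cells. C1q binds the target and starts the classical pathway, C2 and factor B supply the proteases of the C3 convertases of the classical and alternative pathways, and cleavage of C3 and C5 releases small peptides that call in and activate leukocytes through their receptors. Tissue macrophages are a well known source of C1q, whereas stromal cells make C1 inhibitor, the product of Serping1, and several early components.

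RNA came from 6 male FVB/NJ mice of 12 weeks, matched by litter and kept at 22 °C on chow without treatment. Of these, 3 were Klf3-/-, carrying a disruption of the gene for the transcriptional repressor KLF3 in every cell of the body and not in eosinophils alone, and 3 were WT. Cells of the inguinal stromal vascular fraction (SVF) were gated as CD11b+ F4/80+ SiglecF+ cells of high side scatter, which the methods also give as live and CD45+, and each array held 1 mouse. Both genotypes came from crosses of heterozygous parents. The p-values measure the spread between 3 mice per genotype.

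The 6 arrays had median intensities of 46.7, 58.7 and 35.4 in the Klf3-/- mice and 36.8, 56.5 and 30.3 in the WT mice, so values were quantile-normalised on the log2 scale before they were compared. As a background level the 95th percentile of the 44 olfactory receptor probe sets was used, which was 5.10 on the log2 scale. Of the 6 Klf3 probe sets, 5 had all 3 Klf3-/- values above all 3 WT values. Their log2 differences ran from 0.69, at the brightest probe set, to 2.83. The other 1 had them below, at 7.33, 7.38 and 8.04 in Klf3-/- against 8.73, 8.13 and 8.92 in WT. Its log2 difference was -1.01. Which exons the probe sets cover, and whether the disruption removes them, was not examined. Among the genes of the gate, Siglecf lay below background, at means of 4.15 in Klf3-/- and 4.58 in WT arrays. Other genes known from eosinophils did too. The means of Ccr3 were 3.92 in Klf3-/- and 3.31 in WT, those of Epx 4.21 in Klf3-/- and 4.49 in WT, and those of Prg2 3.25 in Klf3-/- and 3.36 in WT. Of the 10 measured eosinophil markers, 3 lay above 5.10 in at least 1 genotype. These were Gata2 at 7.60 in Klf3-/- and 6.81 in WT, Ltc4s at 5.39 in Klf3-/- and 4.87 in WT, and Prg3 at 4.84 in Klf3-/- and 5.56 in WT. The other genes of the gate lay above background. Adgre1, which encodes F4/80 and is also a macrophage marker, averaged 8.40 ± 0.90 in Klf3-/- and 7.60 ± 0.46 in WT arrays, and Itgam, which encodes CD11b, 7.30 ± 0.74 in Klf3-/- mice, against 6.55 ± 0.74 in WT mice (SD, n = 3). The other 7 eosinophil markers, Siglecf, Ccr3, Epx and Prg2 among them, thus did not show the labelled cell type on these arrays. In such bulk samples, fewer cells of a type cannot be told apart from less RNA per cell.

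All 11 probe sets lay above the background level in both genotypes. No probe set of the whole table, and so none of these, reached an adjusted p of 0.05 in limma, which put the share called at 0%. At an unadjusted p of 0.05, 2 of the 11 passed (C2 and Serping1, both higher in Klf3-/-), against 5.5% of all probe sets and 3.1% called as higher. The 9 others had 95% intervals for the difference that crossed 0. Of the 8 genes, taking the brightest probe set of each, 7 had a higher mean in Klf3-/-, and the median log2 difference was 0.43, against -0.03 over all probe sets, of which 45.3% were higher. In 2 genes the genotypes did not overlap, again C2 and Serping1, against 4.49% of all probe sets with every Klf3-/- value on top. No gene of the set had every Klf3-/- value below the WT values, as 6.51% of all probe sets did.

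**Figure D1:**
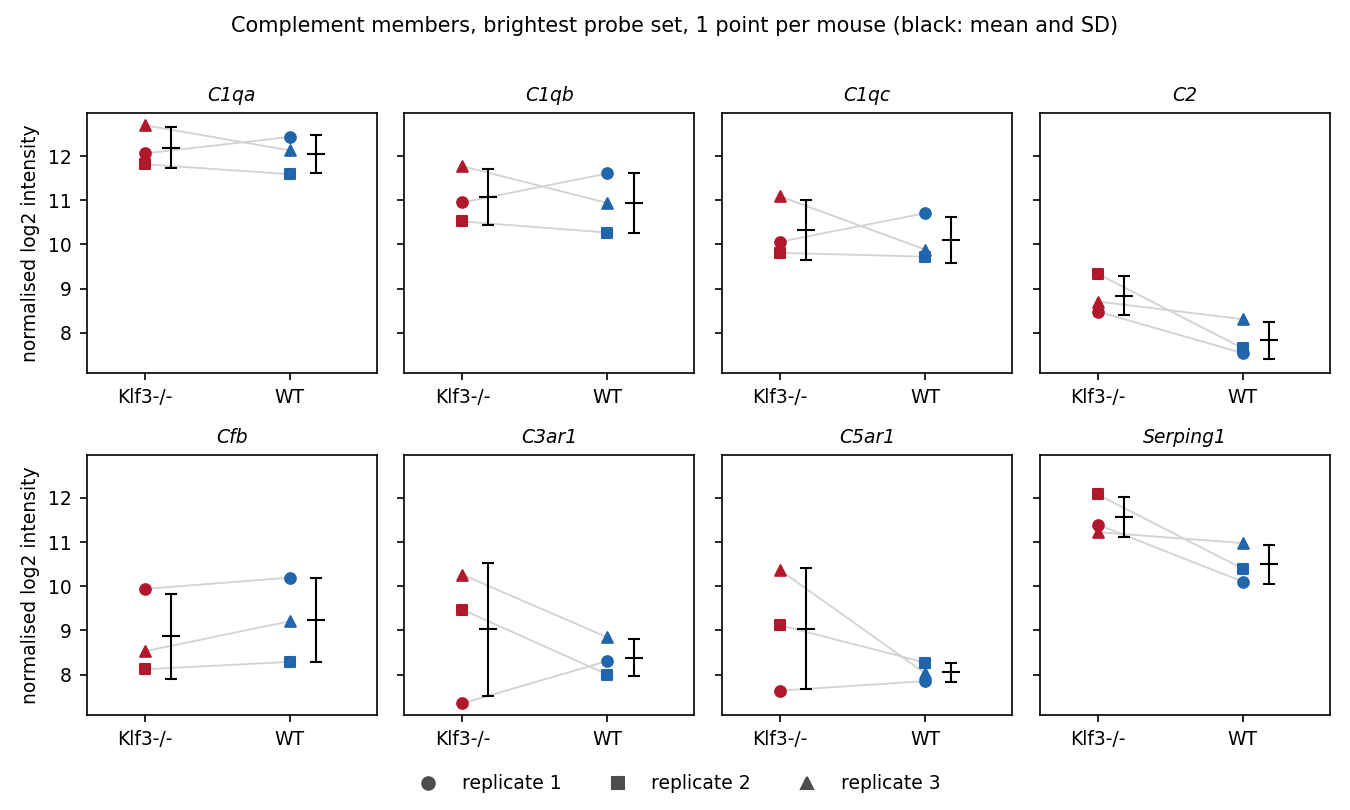
Normalised log2 intensity of the brightest probe set of each of the 8 measured genes in each of the 6 mice, with Klf3-/- mice left of WT mice. Black bars give the mean and SD of each genotype (n = 3), symbols mark the replicate number, and grey lines join mice that share it. Only C2 and Serping1 have all 3 Klf3-/- values above all 3 WT values.

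**Figure D2:**
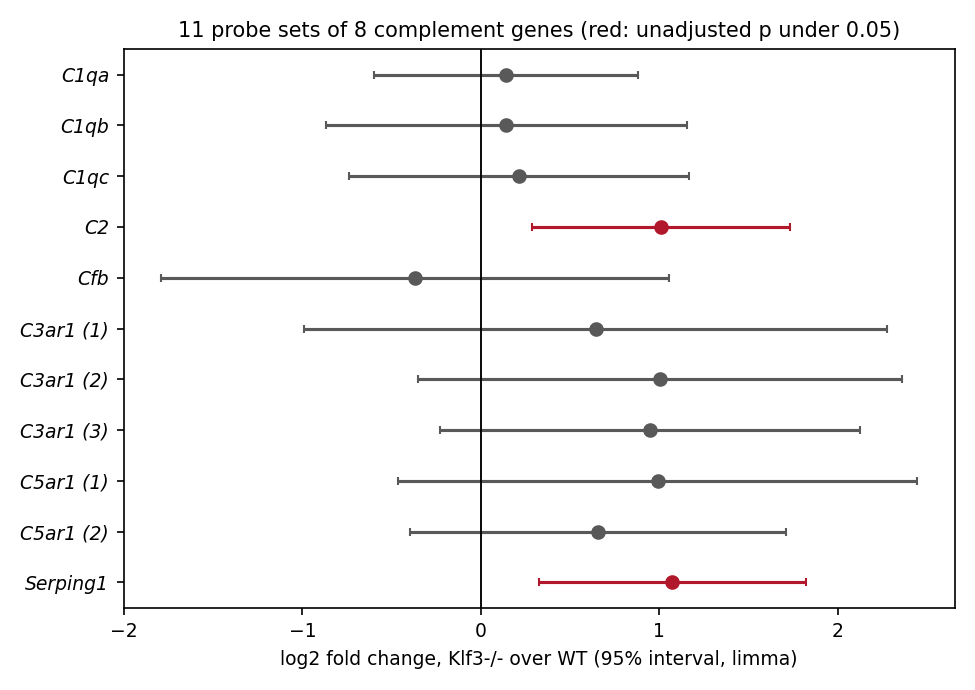
Log2 difference, Klf3-/- minus WT, of the 11 probe sets, with the 95% interval of the limma fit and the line of no difference. Numbers in brackets count the probe sets of a gene from the brightest, and red marks an unadjusted p under 0.05. The intervals of C2 (0.29 to 1.73) and Serping1 (0.33 to 1.82) lie above 0 and the other 9 cross it.

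The 3 C1q chains assemble into C1q, the recognition subunit of C1, and none of them differed between genotypes beyond the spread between mice. C1qa read 12.06, 11.82 and 12.70 in the Klf3-/- mice and 12.43, 11.59 and 12.13 in the WT mice on the normalised log2 scale. The genotypes overlapped, and the means of 12.19 ± 0.46 in Klf3-/- and 12.05 ± 0.43 in WT differed by 0.14 (SE 0.31, 95% interval -0.60 to 0.88, limma adjusted p = 0.977). In the deposited intensities C1qa read 4775, 4618 and 5669 in Klf3-/- and 5114, 4600 and 3120 in WT. C1qb read 10.95, 10.52 and 11.77 in Klf3-/- and 11.61, 10.27 and 10.94 in WT, and differed by 0.14 (SE 0.43, 95% interval -0.87 to 1.15, limma adjusted p = 0.983). C1qc read 10.06, 9.81 and 11.09 in Klf3-/- and 10.71, 9.72 and 9.88 in WT, and differed by 0.21 (SE 0.40, 95% interval -0.74 to 1.17, limma adjusted p = 0.972). All 3 intervals run well to both sides of 0, so neither a rise nor a fall was detected with these arrays.

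The chains varied together from mouse to mouse. All 3 were highest in Klf3-/- mouse 3 and lowest in WT mouse 2, and their ranges over the 6 arrays were 1.11, 1.51 and 1.37 for C1qa, C1qb and C1qc. The difference between C1qa and C1qb within an array lay between 0.83 and 1.32 on every array. That between C1qa and C1qc lay between 1.61 and 2.24, and that between C1qb and C1qc between 0.55 and 1.05. The mean of the chains was 11.02, 10.71 and 11.85 in Klf3-/- mice and 11.58, 10.53 and 10.98 in WT mice, which is 11.20 ± 0.59 in Klf3-/- mice, against 11.03 ± 0.53 in WT mice (SD, n = 3). The direction of the C1q differences rested on single arrays: without Klf3-/- mouse 3 the differences of C1qa, C1qb and C1qc were -0.12, -0.20 and -0.17, and without WT mouse 2 those of C1qa and C1qb were -0.09 and -0.19. In the mouse genome the genes C1qb, C1qc and C1qa lie next to one another on chromosome 4, with no other protein-coding gene between them in the RefSeq table.

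KLF3 binds CACCC boxes. The RefSeq promoter table of mouse assembly GRCm38.p6, with 250 bases before and 50 after the start of each gene, held 4 of the 8 measured genes, namely C1qb, C1qc, C3ar1 and C5ar1, all on the minus strand. They are printed to show where the 5 letters of the box occur in promoters of a pair of C1q genes that varied together and of both receptors. Capitals mark CACCC or its reverse complement GGGTG, searched on both strands, and each sequence runs 5′ to 3′. These are the promoters of C1qb (chr4:136886151-136886450), C1qc (chr4:136892865-136893164), C3ar1 (chr6:122856108-122856407) and C5ar1 (chr7:16259289-16259588).
C1qb: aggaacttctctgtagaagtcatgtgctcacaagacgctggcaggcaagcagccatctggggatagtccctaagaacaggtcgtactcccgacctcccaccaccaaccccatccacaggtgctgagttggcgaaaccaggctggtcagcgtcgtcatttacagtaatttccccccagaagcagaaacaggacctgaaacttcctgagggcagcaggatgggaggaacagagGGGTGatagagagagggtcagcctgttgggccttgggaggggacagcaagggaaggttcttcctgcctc
C1qc: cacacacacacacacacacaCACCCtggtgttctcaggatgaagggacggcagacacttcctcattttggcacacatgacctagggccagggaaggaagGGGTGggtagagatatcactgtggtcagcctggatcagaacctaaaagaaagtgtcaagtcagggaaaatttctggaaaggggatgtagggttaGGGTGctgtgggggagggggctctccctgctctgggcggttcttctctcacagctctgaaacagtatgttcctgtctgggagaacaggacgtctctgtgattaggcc
C3ar1: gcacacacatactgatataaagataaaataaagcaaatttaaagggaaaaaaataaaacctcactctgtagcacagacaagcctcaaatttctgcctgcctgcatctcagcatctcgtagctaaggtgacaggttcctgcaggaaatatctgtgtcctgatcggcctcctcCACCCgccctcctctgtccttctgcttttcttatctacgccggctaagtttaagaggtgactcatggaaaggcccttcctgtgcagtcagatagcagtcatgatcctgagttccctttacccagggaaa
C5ar1: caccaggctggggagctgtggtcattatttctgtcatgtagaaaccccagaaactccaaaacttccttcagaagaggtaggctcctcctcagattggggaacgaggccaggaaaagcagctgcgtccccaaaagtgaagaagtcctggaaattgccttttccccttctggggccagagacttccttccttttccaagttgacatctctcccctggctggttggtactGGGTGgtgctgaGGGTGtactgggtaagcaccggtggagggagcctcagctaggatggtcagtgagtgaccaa
The windows of C1qb, C1qc, C3ar1 and C5ar1 held 1, 3, 1 and 2 such boxes. Of 32851 mouse promoters of the same length, 18895 (57.5%) held at least 1. A match of these letters is a description and not a binding site, and binding of KLF3 was not measured on these arrays.

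C2, the protease component of the classical C3 convertase, had all Klf3-/- values above the WT values. It read 8.48, 9.33 and 8.71 in Klf3-/- mice, against 7.54, 7.65 and 8.31 in WT. The deposited intensities were 387, 1011 and 304 in Klf3-/- animals, against 159, 296 and 191 in WT animals, and did not overlap either (3.61% of all probe sets had Klf3-/- on top in the deposited values). C2 averaged 8.84 ± 0.44 in Klf3-/- mice, against 7.83 ± 0.42 in WT mice (SD, n = 3), a log2 difference of 1.01 or 2.01-fold (SE 0.31, 95% interval 0.29 to 1.73). The unadjusted limma p was 0.0130 and the adjusted p 0.862, so C2 did not pass the test over all probe sets. In the pairs by replicate number, C2 was higher in the Klf3-/- mouse in all 3, by 0.94, 1.69 and 0.40. With 3 against 3 an exact permutation test cannot go below p = 0.1, the value it gave for C2.

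Cfb encodes factor B, which supplies the protease of the alternative pathway convertase, and lies beside C2 on chromosome 17. It was the only measured gene of the list with a lower mean in Klf3-/-, at 9.94, 8.12 and 8.53 in Klf3-/- mice and 10.20, 8.29 and 9.21 in WT mice. The genotypes overlapped widely, and the difference of -0.37 had a 95% interval of -1.79 to 1.05 (SE 0.60, limma adjusted p = 0.970). Replicate 1 was the highest mouse of both genotypes, at 9.94 in Klf3-/- and 10.20 in WT. Within the pairs the Klf3-/- value was lower in all 3, with differences of -0.26, -0.17 and -0.68, and blocking on the replicate number gave an unadjusted limma p of 0.124. Without WT mouse 1 the difference was 0.11, and without Klf3-/- mouse 2 it was 0.0018.

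The anaphylatoxin receptors C3ar1 and C5ar1 are G protein-coupled receptors for the cleavage peptides of C3 and C5. The brightest C3ar1 probe set read 7.35, 9.47 and 10.26 in Klf3-/- mice and 8.31, 8.0 and 8.84 in WT mice. The Klf3-/- mice were far apart, with mouse 1 below every WT mouse and mouse 3 above every other array. The means were 9.03 ± 1.51 in Klf3-/- and 8.38 ± 0.43 in WT, with a difference of 0.64 (SE 0.69, 95% interval -0.99 to 2.28, limma adjusted p = 0.957). The other 2 C3ar1 probe sets differed by 1.00 (SE 0.58, unadjusted p of 0.123) and 0.95 (SE 0.50), both with a limma adjusted p of 0.910. With the replicate block the first of these had an unadjusted limma p of 0.026, which made 3 of 11 probe sets, all higher in Klf3-/-, against 7.13% of all probe sets, 3.85% as higher and 3.28% as lower.

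The brightest C5ar1 probe set read 7.64, 9.12 and 10.37 in Klf3-/- mice and 7.85, 8.27 and 8.03 in WT mice. The WT mice were close together and the Klf3-/- mice were not, with SDs of 1.37 in Klf3-/- and 0.21 in WT. The difference was 0.99 (SE 0.62, 95% interval -0.46 to 2.44, limma adjusted p = 0.919), and that of the other probe set was 0.66 (SE 0.45, adjusted p = 0.936). Both receptors were highest in Klf3-/- mouse 3 and lowest in Klf3-/- mouse 1 at their brightest probe sets. The pairs by replicate number gave -0.96, 1.47 and 1.42 for C3ar1 and -0.21, 0.85 and 2.34 for C5ar1.

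The receptor differences depended on single mice. Without Klf3-/- mouse 1, the difference was 1.49 for C3ar1 (unadjusted limma p of 0.00569, adjusted p = 0.597) and 1.70 for C5ar1 (unadjusted p of 0.00470, adjusted p = 0.584). In that fit 7 of the 11 probe sets had an unadjusted p under 0.05, among them all of C3ar1 and C5ar1, against 5.98% of all probe sets, and all 7 were higher in Klf3-/-, against 3.57%. These are not 7 separate genes, as C3ar1 has 3 of the probe sets and C5ar1 has 2. The mouse left out was also the lowest of all for both receptors at their brightest probe sets. Without Klf3-/- mouse 3 instead, the differences were 0.02 for C3ar1 and 0.33 for C5ar1. None of these reached an adjusted p of 0.05.

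**Figure D3:**
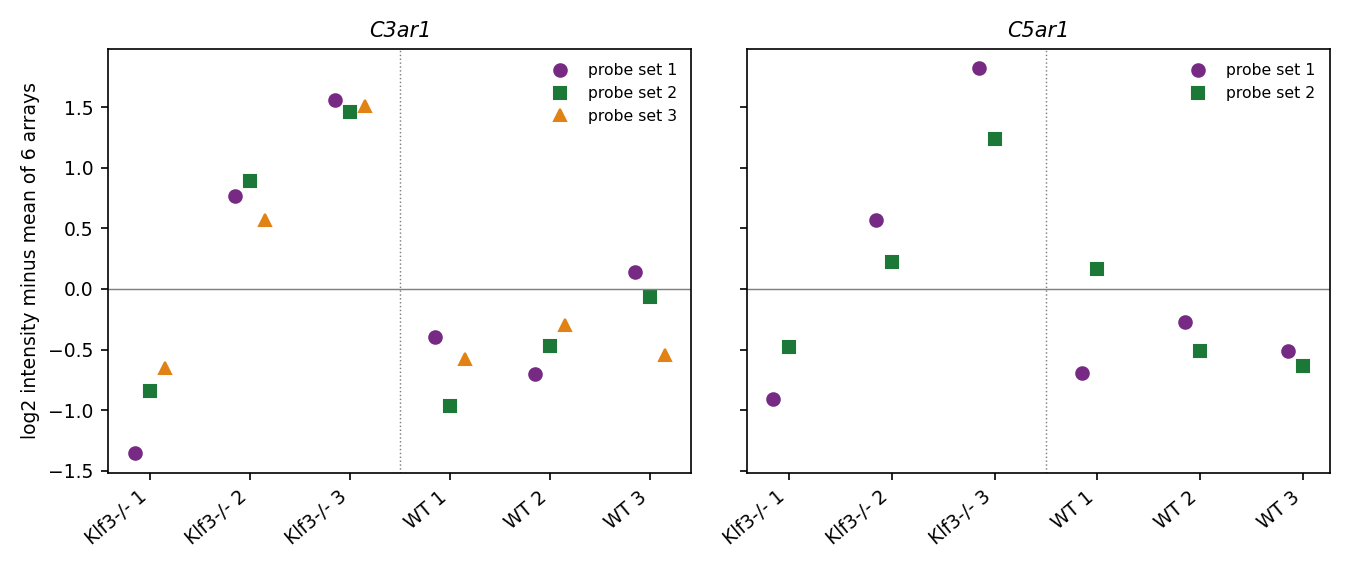
Normalised log2 intensity of the 3 C3ar1 and 2 C5ar1 probe sets in each mouse, each minus its own mean over the 6 arrays, with Klf3-/- mice left of WT mice. All probe sets are low in Klf3-/- mouse 1 and high in Klf3-/- mouse 3.

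Serping1, which encodes the inhibitor of the C1 proteases, read 11.40, 12.08 and 11.22 in Klf3-/- mice and 10.11, 10.40 and 10.98 in WT mice. No Klf3-/- value lay below a WT value on this scale, and the means of 11.57 ± 0.45 in Klf3-/- mice, against 10.49 ± 0.44 in WT mice (SD, n = 3) differed by 1.07, or 2.10-fold (SE 0.32, 95% interval 0.33 to 1.82). The unadjusted limma p was 0.0113 and the adjusted p 0.854, and the exact permutation test gave p = 0.1, the smallest it can give. In the deposited intensities Serping1 read 2922, 5405 and 1906 in Klf3-/- and 937, 2102 and 1273 in WT, where the genotypes overlapped. Replicate pairs differed by 1.29, 1.68 and 0.25. C2 and Serping1 were both highest in Klf3-/- mouse 2 and lowest in WT mouse 1.

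Of a list of 49 other complement genes, 38 were measured and 24 lay above the background level. Of the 38, 18 had a higher mean in Klf3-/- and 20 a lower one, with a median log2 difference of -0.03. None passed the adjusted test. At the unadjusted threshold 6 were higher (3.1% of all probe sets were) and 2 lower (2.39% of all probe sets).

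Of the genes above the background level in both genotypes, C4b and Fcna, early components of the classical and lectin pathways, had the largest differences. C4b, the C4 precursor whose fragment forms the convertase with that of C2, read 11.03, 11.87 and 11.99 in Klf3-/- mice and 8.90, 9.43 and 9.94 in WT mice, a difference of 2.21 or 4.62-fold (SE 0.36, unadjusted limma p of 0.0004, adjusted p = 0.663). Fcna, a ficolin that starts the lectin pathway, read 10.89, 12.05 and 13.06 in Klf3-/- mice and 9.24, 8.92 and 9.29 in WT mice, a difference of 2.85 or 7.20-fold (SE 0.50, unadjusted p of 0.0007, adjusted p = 0.663). No genotype overlap was seen in either. C1ra, a protease of the C1 complex, averaged 8.58 ± 0.71 in Klf3-/- and 7.05 ± 0.80 in WT, and differed by 1.52 (adjusted p = 0.863). Its near-identical copy C1rb averaged 9.71 ± 0.47 in Klf3-/- and 8.86 ± 0.29 in WT (difference 0.85, adjusted p = 0.868). The probe sets of C4b, of C1ra and C1rb, and of Cd55 may also catch near-identical copies. Over the 12 measured classical and lectin genes, 7 had higher and 5 lower means and 4 had an unadjusted p under 0.05, all higher in Klf3-/-, against 3.1% of all probe sets.

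Among the receptors the differences ran both ways. Vsig4, a macrophage receptor for C3 fragments, read 4.67, 8.11 and 9.64 in Klf3-/- mice and 3.65, 3.88 and 4.08 in WT mice, so that all WT values lay below the background level and mouse 1 of the Klf3-/- mice did too. Its difference of 3.60 (SE 1.11, limma adjusted p = 0.862) is therefore set against a level near background. Itgax, the alpha chain of complement receptor 4, averaged 7.45 ± 0.26 in Klf3-/- and 9.13 ± 0.38 in WT, a difference of -1.69 (SE 0.26, unadjusted p of 0.0003, adjusted p = 0.600). Cr2, known on B cells and follicular dendritic cells, averaged 8.27 ± 0.32 in Klf3-/- and 9.13 ± 0.45 in WT (adjusted p = 0.868). Itgb2, the beta chain shared by receptors 3 and 4, averaged 10.43 ± 0.24 in Klf3-/- and 10.73 ± 0.11 in WT, with no overlap after normalisation and an overlap in the deposited values. Of the 13 regulators, Cd55, a decay-accelerating factor of convertases, averaged 9.27 ± 0.53 in Klf3-/- and 8.31 ± 0.66 in WT (difference 0.96, limma adjusted p = 0.901). The genotypes overlapped at this probe set and at the other Cd55 probe sets, which differed by 0.87 and 1.06 (unadjusted limma p of 0.074 and 0.076). Among the 6 genes of the terminal pathway, C8b had every normalised Klf3-/- value below the WT values (6.51% of all probe sets did), at 5.39 ± 0.11 in Klf3-/- against 5.57 ± 0.02 in WT, close to the background level. Its deposited values overlapped, with means of 45.4 in both genotypes.

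**Figure D4:**
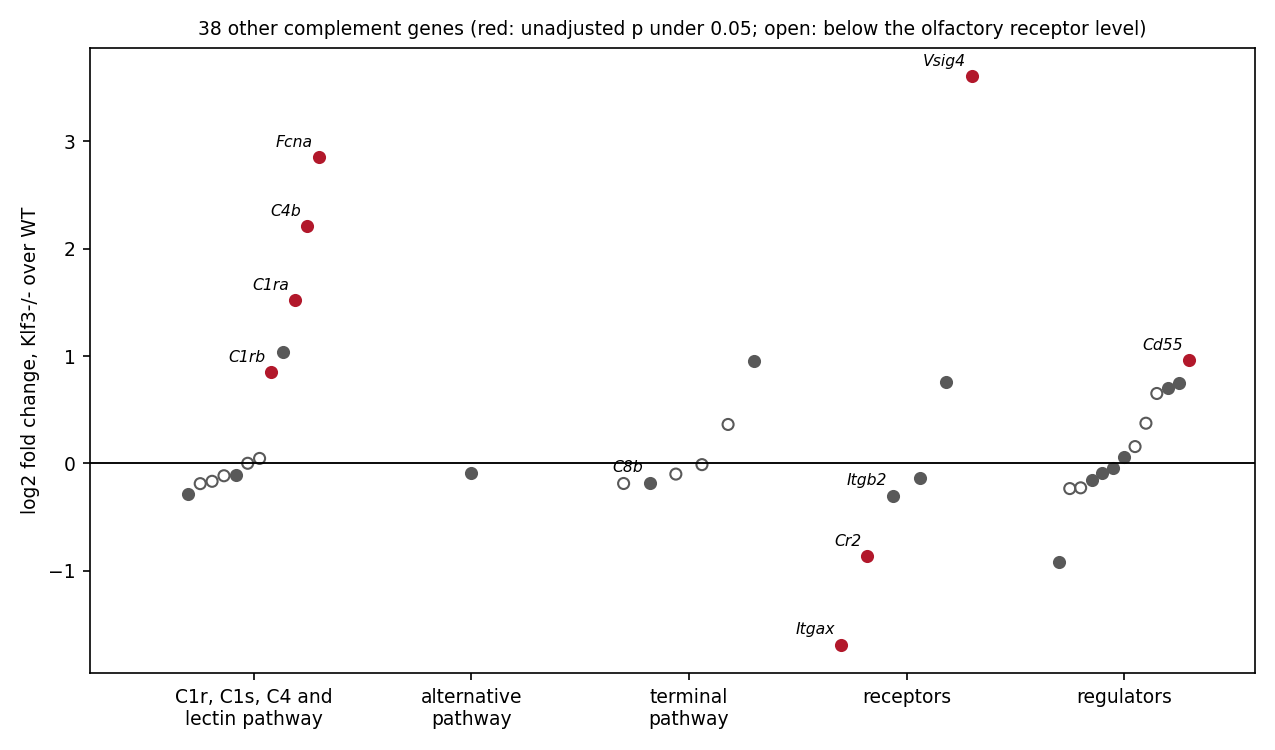
Log2 difference, Klf3-/- minus WT, of the 38 other complement genes, 1 point per gene at its brightest probe set, grouped by role and ordered by value within a group. Red points have an unadjusted p under 0.05, open points lie below the background level in both genotypes, and labels mark the genes named in the text. Vsig4 (3.60), Fcna (2.85) and C4b (2.21) lie furthest above 0 and Itgax (-1.69) furthest below. All WT values of Vsig4 lie below the background level.

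Marker lists of other cell types varied with some of these genes from mouse to mouse. The gate on CD45, CD11b, F4/80, SiglecF and side scatter is meant to leave out these other types, stromal cells, endothelial cells and adipocytes among them. How far it did so was not tested. All 15 measured stromal markers lay above the background level by their mean over all arrays. The mean of 15 measured stromal markers was 9.07, 10.07 and 9.12 in Klf3-/- mice and 8.10, 8.54 and 8.91 in WT mice, so the genotypes did not overlap. Of the 15, 13 had higher means in Klf3-/- (45.3% of all probe sets did), 8 were higher at an unadjusted p of 0.05 (3.1% of all probe sets) and 7 did not overlap (4.49%). This list was highest in Klf3-/- mouse 2 and lowest in WT mouse 1, the arrays where C2 and Serping1 were highest and lowest. It was not alone in this, as the mast cell list had its highest and lowest values on the same arrays. The mean of 17 measured macrophage markers was 8.95, 9.30 and 10.26 in Klf3-/- and 9.29, 8.68 and 9.32 in WT, highest in Klf3-/- mouse 3, as were the receptors and C1q. Its lowest value was that of WT mouse 2, as for C1q, whereas the receptors were lowest in Klf3-/- mouse 1. Of the 17, 12 had higher means in Klf3-/- (45.3% of all probe sets did). At the unadjusted threshold 3 were higher, against 3.1% of all probe sets, and 1 was lower, against 2.39%. Lyve1 had the largest difference of the list, at 8.67, 10.57 and 11.73 in Klf3-/- and 7.98, 7.88 and 8.48 in WT. Aif1 differed the other way, by -1.28 (unadjusted limma p of 0.011, adjusted p = 0.854) with no overlap, and Cd68 and Csf1r differed by 0.03 and 0.11. The part of these cells in the complement differences was not tested.

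The other marker lists had these mean log2 levels. The dendritic cell markers averaged 9.21, 9.08 and 9.05 in Klf3-/- and 9.47, 10.34 and 9.42 in WT, so the genotypes did not overlap. Of the 10 markers, Itgax among them, 9 had lower means in Klf3-/- (24621 of all 45037 probe sets did). At an unadjusted limma p of 0.05, 2 were lower (2.39% of all probe sets), and 3 were lower without overlap (6.51%). Mast cell markers averaged 6.91, 9.39 and 5.86 in Klf3-/- and 5.03, 8.32 and 6.09 in WT, highest in replicate 2 of both genotypes. Over all arrays they were highest in Klf3-/- mouse 2 and lowest in WT mouse 1, as were the stromal list, C2 and Serping1. All 8 had higher means in Klf3-/- (45.3% of all probe sets did), with 0 of 8 at an unadjusted p of 0.05 in limma. The mast cell list difference of 0.91 was the largest of any list. The neutrophil list averaged 7.47, 6.24 and 6.57 in Klf3-/- and 5.66, 6.31 and 7.13 in WT. The 10 measured eosinophil markers averaged 4.67, 4.55 and 4.44 in Klf3-/- and 4.38, 4.62 and 4.45 in WT. B cell, T and NK cell, endothelial and adipocyte lists differed between Klf3-/- and WT by -0.22, -0.18, -0.17 and -0.19. Their part in the complement values was not tested either.

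**Figure D5:**
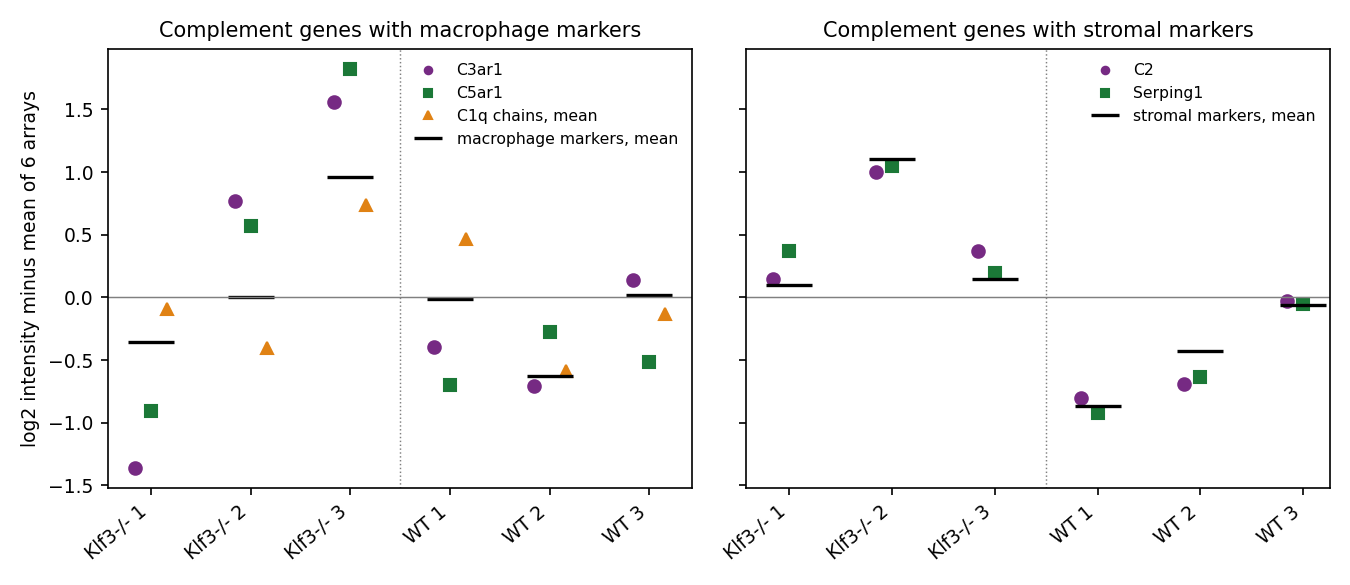
Left panel, normalised log2 intensity of C3ar1, C5ar1 and the mean of the C1q chains beside the mean of the macrophage markers. Right panel, C2 and Serping1 beside the mean of the stromal markers. Every series is shown minus its own mean over the 6 arrays, with Klf3-/- mice left of WT mice. The stromal list and both genes are highest in Klf3-/- mouse 2 and lowest in WT mouse 1. The mast cell list, not shown, has the same highest and lowest arrays.

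The genes whose pattern over the 6 arrays was most like each profile were ranked by Pearson's r over genes above the background level. With the C1q mean these were Fam219b (r = 0.993), Ceacam15, Gid4, Ppargc1b and Ubald1 (0.980). With the mean of the receptors they were Pf4 (0.986), Stab1, Cd209f, Tslp and Clec10a (0.983). With Serping1 they were Dpep1 (0.994), Scara3, Steap4, Tpst1 and Ndn, and with C2 they were Scara3 (0.991), Tle6, Egfr, Dcn and Agt. The receptor, Serping1 and C2 profiles were chosen in place of C3. With 6 arrays and many genes to choose from such values of r are a description only, and all points share the arrays and their cell make-up.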

How the data were processed

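The deposited table holds linear intensity values of 45037 probe sets of an Affymetrix HT MG-430PM array, 1 column per mouse. Per the methods and labels the authors processed the arrays in Partek, with normalisation named as RMA in a legend. For the RMA steps applied, details were not given in the sources used here. Medians of the arrays spanned 1.94-fold, and log2 values were quantile-normalised between arrays here. Linear models with genotype as the only term were fitted over all probe sets with limma 3.58.1 in R 4.3.3 (lmFit and eBayes), with Benjamini-Hochberg adjustment of the p-values over the table and a threshold of 0.05. For each gene of the set an exact permutation test, two-sided, was run in SciPy 1.17.1. A gene was represented by its brightest probe set. Symbols came from the platform annotation, which gives 1 symbol for 28898 probe sets, several for 551 and none for 15588. It names no genome build. Sequences and gene order came from RefSeq, assembly GRCm38.p6.

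The genes, lists and tests were chosen with earlier results of these data known. All measured genes of the set are named. Other complement genes are named if above the background level in at least 1 genotype with an unadjusted p under 0.05 or no overlap. The 3 brightest are named too. Vsig4 met the level through Klf3-/- alone. The number of arrays limits the precision. Deviations from the genotype mean correlated between mice of the same replicate number (r = 0.17, 0.23 and 0.21), and between mice of different numbers from -0.18 to -0.01. Because these deviations cancel within a genotype, positive r for shared numbers forces negative r on average for the others. The negative values are therefore no separate evidence of pairing. The labels call the mice litter-matched without saying what a number marks. As r was above 0.1 for every shared number, the numbers were taken to pair the mice, and a fit with the number as a block was an alternative. Further alternatives were other scalings, a pseudocount of 16, variance models, array weights, an analysis of variance per probe set, a filter on dim probe sets, the mean of a gene's probe sets and leaving out each array. The fit was tested on simulated data. Figures were drawn with matplotlib 3.10.9.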

Additional observations from a re-analysis of the deposited data

How the results depend on the processing

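No adjusted p fell under 0.05 for any probe set under any alternative run. The count of all probe sets at an unadjusted p of 0.05 was 2475, and 1212 on the values as deposited, 1517 without dim probe sets (of 24912) and 1056 with the mean of a gene's probe sets (of 17097 genes), where fewer features were tested in the last pair. Among the 11 complement probe sets the count was 2, and leaving out 1 array at a time gave 2 to 7, with 7 without Klf3-/- mouse 1. With the replicate block it was 3, and the block changed no other call. Among other complement genes the count was 8, and 4 with the analysis of variance per probe set (2240 of all 45037 probe sets there). It was 5 to 10 when 1 array was left out, with 5 without WT mouse 3 (2639 of all probe sets there). Over all probe sets, leaving out 1 array gave 2031 to 2694. Genes without overlap numbered 2, and 1 as deposited, all higher in Klf3-/- (4.49% and 3.61% of all probe sets were). Without single arrays they numbered 2 to 4, with 4 without Klf3-/- mouse 1. With 1 array fewer, any probe set is less likely to overlap. The share of all probe sets without overlap was not counted for those fits.

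Of the 128 single-gene comparisons with an alternative, 118 kept their direction and side of the threshold. Sign changes came with array weights, at -0.052 for C1qa, -0.17 for C1qb and -0.078 for C1qc, and when arrays were left out. There the log2 differences ran from -0.12 to 0.34 for C1qa, from -0.20 to 0.48 for C1qb, from -0.17 to 0.51 for C1qc and from -0.91 to 0.11 for Cfb. The cause of these changes was not tested. They ran from 0.76 to 1.25 for C2, from 0.85 to 1.29 for Serping1, from 0.02 to 1.49 for C3ar1 and from 0.33 to 1.70 for C5ar1.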
